A study of Mus musculus with 6 samples.

Results

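The cytosolic ribosomal protein genes encode the proteins of the large and the small subunit of the ribosome. They were taken as the protein-coding genes named Rpl or Rps followed by a digit, with Rplp0, Rplp1, Rplp2 and Rpsa. Kinase genes of the Rps6k family, 6 genes with a pseudogene name and 1 gene with a name ending in bp1 were left out. The rule gave 85 genes of the 54446 in the table, 52 of the large and 33 of the small subunit. Of these, 77 were the standard gene of a ribosomal protein and 8 were named paralogs.

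Ribosomal proteins are assembled on ribosomal RNA in the nucleolus, and each mature subunit holds a single copy of nearly all of them. Their mRNAs are among the most abundant of growing cells and share a pyrimidine-rich start, through which the kinase mTOR and the RNA-binding protein LARP1 set their translation. Activated B cells build many ribosomes before they divide and secrete antibody.

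The libraries came from naive B cells of mouse spleen, purified by negative selection. They were stimulated with LPS (20 µg/ml) in the presence of IL-4 (20 ng/ml), and the culture lasted 7 days. There were 3 libraries labelled TENT5C KO and 3 labelled wild type (WT), all of the mixed C57BL/6J X CBA strain and from littermates 12 to 15 weeks old. TENT5C is a cytoplasmic poly(A) polymerase, and the question put here was whether mRNAs of ribosomal proteins differed in level without it. A replicate number marked a KO and a WT littermate handled as a batch. RNA was depleted of ribosomal RNA and sequenced by strand, and each library held between 5393558 and 6793520 fragments on genes. Levels are given as normalized counts, which are fragments divided by the size factor of the library.

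Gene counts of the targeted gene did not separate the groups. Tent5c had 1993, 993 and 1170 normalized counts in KO replicates 1, 2 and 3, and 1255, 767 and 1585 in the WT replicates. The ranges overlapped, with a log2 fold change of 0.20 (95% interval -0.26 to 0.66; limma adjusted p = 0.970). A count over the whole gene does not show whether fragments fall on the edited part, so the labels could not be checked from it, and the groups follow the labels.

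The cells matched their B cell label. All 6 B cell markers were present, with Ms4a1, the gene of CD20, the most abundant at a mean of 10957 normalized counts. Their sum lay between 30888 in WT replicate 3 and 35956 in KO replicate 3. Of the 5 T cell markers none reached a mean of 10, and their sum was highest in WT replicate 3 at 40.9. Among the erythroid markers, Hba-a1 and Hbb-bs had no fragment in any library. The 2 NK cell markers summed to at most 4.18. Lyz2 and Adgre1 were the myeloid markers above a mean of 10, at 44.7 and 29.7, and the myeloid sum was lowest in KO replicate 2 at 18.1 and highest in KO replicate 1 at 129. The 5 plasma cell markers, led by Xbp1, varied more. They summed to 15765, 8049 and 10612 in the KO libraries and to 10895, 7905 and 18378 in the WT libraries, so that KO replicate 1 and WT replicate 3 were the high ones.

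Ribosomal protein mRNAs were abundant and steady. Of the 85 genes, 74 had a mean over 1000 normalized counts, and 48 of the 100 protein-coding genes with the highest means were ribosomal protein genes. Per kb of merged exon, the 82 genes whose mean reached 10 had a median level of 3303 normalized counts, against 47.7 for the 10465 protein-coding genes that passed the same filter. The median was 2814 for the large and 3807 for the small subunit, with wide overlap, since the middle 50% of genes ran from 1812 to 4740 and from 1939 to 5378. On the length of the longest coding transcript the medians were higher, 6817 and 7688, with the small subunit above the large on both scales. The difference between subunits in level was not tested. In the single libraries the median per kb of exon over all 82 genes ran from 3103 in KO replicate 1 to 3622 in KO replicate 2.

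The highest level per kb of exon belonged to Rplp1, a protein of the acidic stalk that recruits translation factors, at 23348. Its values were 22441, 24231 and 22265 in the KO and 24454, 24169 and 22532 in the WT libraries, so the groups overlapped. Rpl32 followed at 12596, Rpl36 at 11906, Rps4x, which lies on the X chromosome, at 9922, and Rpl4, which lines the exit tunnel, at 9861. Of these 5 genes, 2 were also among the 5 highest on the length of the coding transcript. The lowest of all were 3 paralogs, Rpl10l, Rpl3l and Rpl39l, which did not reach a mean of 10. Among the tested genes, Rps10, a standard protein of the small subunit, was lowest at 79.4 per kb, with Rpl36al, a paralog, next at 113. The standard genes Rpl24, Rps16 and Rpl13a were also low, at 132, 324 and 435 per kb.

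**Figure D1:**
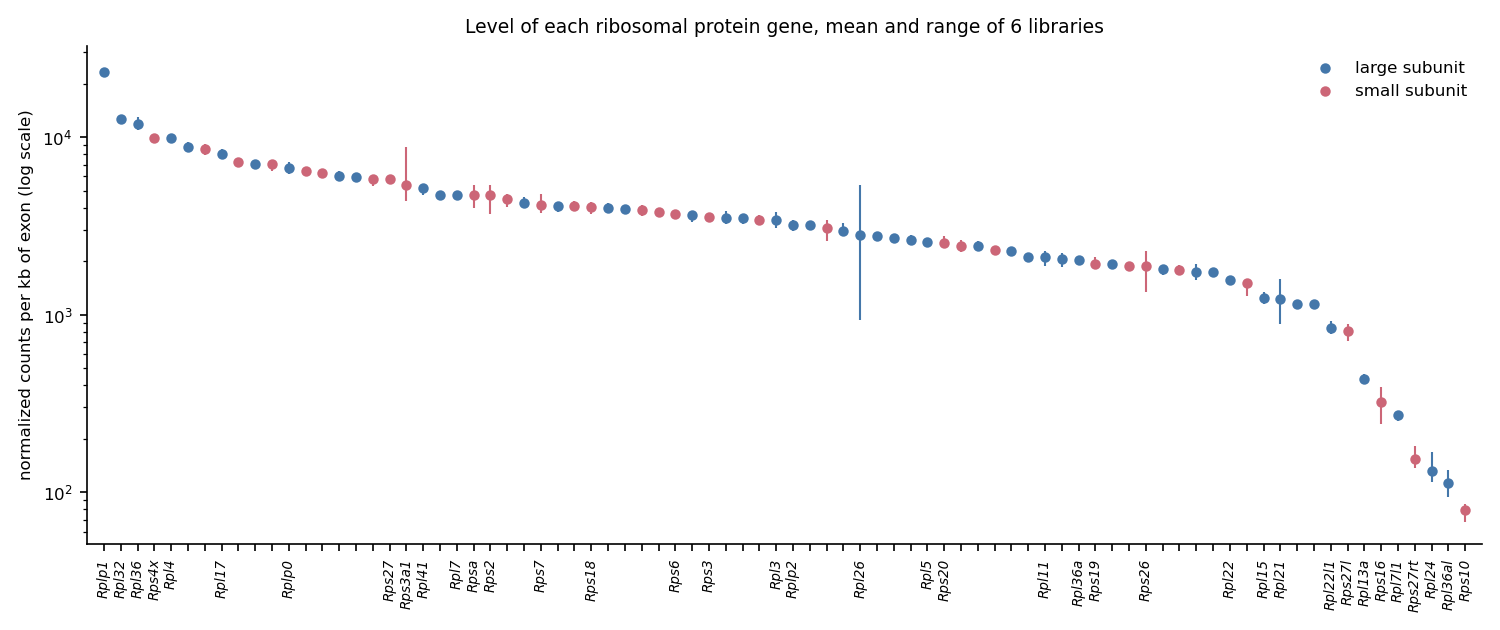
Level of the 82 tested ribosomal protein genes in normalized counts per kb of merged exon (log axis), as the mean of 6 libraries (points) with the lowest and highest library (lines). The quartiles of the genes are 1896 and 4743, around a median of 3303, and Rpl26, Rps3a1 and Rpl21 have the widest ranges between libraries. Only genes named in the text are labelled.

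The mRNAs of the stalk proteins gave close values between libraries. Rplp0, the base of the stalk, had 10915 ± 703 normalized counts in KO and 11428 ± 543 in WT (SD, n = 3), and Rplp2 had 6604 ± 464 and 6696 ± 191. Rplp0 lay lower in KO in all 3 pairs, at log2 ratios of -0.08, -0.04 and -0.08, but the groups overlapped and the adjusted p of limma was 0.970. Its fitted value of -0.07 was 0.02 after quantile normalization.

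Among other proteins of the large subunit, Rpl3, which sits near the peptidyl transferase centre, had 9891, 11946 and 11268 normalized counts in KO and 10256, 11552 and 9794 in WT. Rpl5 and Rpl11, which join the smallest ribosomal RNA and bind MDM2 when free, had 10122 ± 274 and 5737 ± 599 in KO and 9965 ± 484 and 5620 ± 320 in WT (SD, n = 3). Rpl41, the shortest of the ribosomal proteins, had 5946 ± 420 and 6050 ± 103. In each of these genes the difference between groups was smaller than the SD of the KO libraries.

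In the small subunit, Rps3, at the entry of the mRNA channel, had 15429, 16300 and 14900 normalized counts in KO and 16405, 16694 and 15147 in WT. It was lower in KO in all 3 pairs with overlapping groups, and its fitted log2 fold change of -0.05 turned to 0.15 after quantile normalization. Rps6, the substrate of the S6 kinases, had 5753 ± 145 in KO and 5880 ± 211 in WT, and Rps19, a gene mutated in Diamond-Blackfan anemia, had 9050 ± 715 and 9119 ± 451 (SD, n = 3). Rpsa, also known as the laminin receptor, had 12651, 14435 and 16818 in KO and 13317, 17127 and 15046 in WT.

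Paralogs had very unequal counted levels. Rpl22l1 was the closest to its partner, at 842 normalized counts per kb of exon against 1561 for Rpl22, or 54.0%, and its share ran from 50.7% to 58.1% over the 6 libraries. On the length of the coding transcript the order turned, with Rpl22l1 at 137% of Rpl22. Rps27l stood at 814 normalized counts per kb against 5808 for Rps27. Rpl7l1 was at 5.76% of Rpl7, Rpl36al at 5.54% of Rpl36a and Rps27rt at 2.65% of Rps27. Rpl39l had 4.72, 5.72 and 0 normalized counts in KO and 13.2, 0 and 1.20 in WT. Rpl3l, a paralog of striated muscle, was at 0 in 5 libraries and had 2.41 normalized counts in WT replicate 3. Rpl10l, a testis paralog, had no fragment in any library, where 3 fragments would be 2.72 to 3.61 normalized counts. Rps4l, annotated as a pseudogene and so not counted among the 85, had 8.09 per kb against 9922 for Rps4x.

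Ribosomal protein genes took 8.48%, 9.21% and 8.88% of all fragments on genes in KO replicates 1, 2 and 3, and 8.70%, 8.99% and 8.30% in the WT replicates. The means were 8.86% ± 0.363 and 8.66% ± 0.342 (SD, n = 3) and the groups overlapped. The KO/WT log2 ratios of this share were -0.04, 0.04 and 0.10 in replicates 1, 2 and 3, with a mean of 0.03 ± 0.07 (SD, n = 3). Among protein-coding genes without immunoglobulin genes the ratios were -0.01, 0.01 and 0.02. The large subunit held 4.99% ± 0.240 in KO and 4.86% ± 0.194 in WT, and the small subunit 3.87% ± 0.134 and 3.81% ± 0.150. The share was lowest in WT replicate 3 and KO replicate 1, the libraries with the highest plasma cell marker sums, and highest in KO replicate 2 and WT replicate 2, with the lowest sums. The part of plasma cells in the share was not tested, and fewer cells of a type and less RNA per cell cannot be told apart in bulk RNA.

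The comparison of KO with WT called no ribosomal protein gene. Of the 82 genes tested, 0 passed an adjusted p of 0.05 in limma, where 0.0% of all 12322 genes passed. The edgeR quasi-likelihood test also called 0 of 82, with 0.0% of all genes, and DESeq2 called 0 of 82, with 0.179% of all genes (22, each lower in KO). DESeq2 gave an adjusted p to 7783 of the genes, 81 of them ribosomal protein genes. At an unadjusted p under 0.05, limma gave 1 gene higher in KO, against 1.67% of all genes, and 0 lower, against 3.03%. The median fitted log2 fold change over the 82 genes was -0.01, as against 0.00 over all genes tested. Of the 82, 40 lay above 0 and 42 below, 77 lay within 0.1 of 0, and 2 lay beyond 0.25. Over all genes tested, 6492 of 12322 lay within 0.1. The 95% interval lay wholly within 0.25 of 0 for 72 of the 82, and for 2453 of all 12322 genes. These intervals draw part of their width from the variance of all genes tested, and they hold for the authors' size factors only. The value of Rps3 after quantile normalization, given above, lay outside its interval of -0.21 to 0.11.

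The direction of the small median differed between pairs and scalings. The median KO/WT log2 ratio of the 82 genes was -0.04 in replicate 1, with 60 genes below 0. It was 0.02 in replicate 2, with 57 above 0, and -0.01 in replicate 3, with 44 below 0, and the mean over the pairs was -0.01 ± 0.03 (SD, n = 3). Scaling to total fragments moved nearly all genes up alike, to a fitted median of 0.03 for the 82 genes and 0.03 for all genes tested. Relative to all genes the median was -0.01 as reported and -0.01 with scaling to total fragments, but 0.02 after quantile normalization, where the medians were 0.04 and 0.02. Ratios were below 0 in all 3 pairs for 10 genes, or 12.2%, near the 13.1% of all genes. They were above 0 in all pairs for 1 gene, against 11.7%. With scaling to total fragments 2 genes were below and 9 above, against 1105 and 2037 of all 12322 genes, and after quantile normalization 2 were below and 14 above, against 1356 and 1651. In every KO library 1 gene exceeded every WT library, against 3.39% of all genes, and 0 lay under every WT library, against 3.44%.

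The subunits were also compared with each other. The median log2 ratio of the 49 large subunit genes was -0.04, 0.04 and -0.02 in replicates 1, 2 and 3, and that of the 33 small subunit genes was -0.02, 0.01 and 0.00. Large minus small came to -0.02, 0.02 and -0.02, with a mean of 0.00 ± 0.02 (SD, n = 3), so the difference had no common sign over the pairs.

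**Figure D2:**
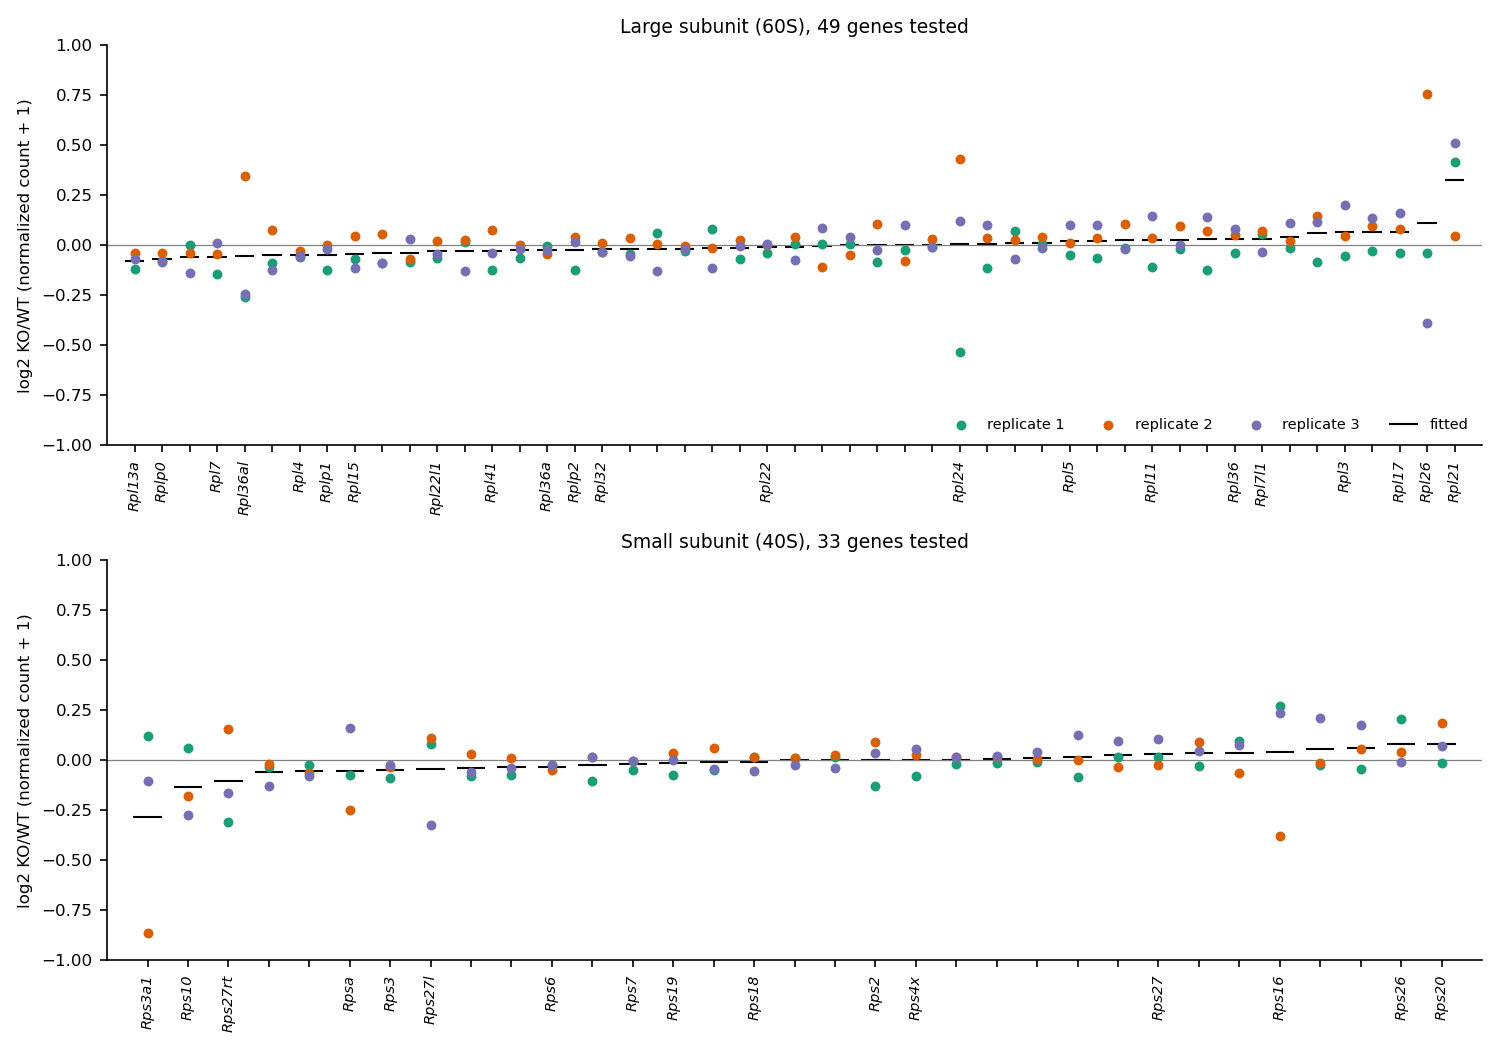
KO/WT log2 ratio of normalized counts (with 1 added) in each replicate number (colored points) and fitted log2 fold change (black bars) for the 49 large and 33 small subunit genes tested. Most points lie within 0.1 of 0, and Rpl26, Rps3a1, Rpl24 and Rpl21 hold the widest pairs. Genes are sorted by fitted value, and only those named in the text are labelled.

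The gene that was higher in KO at the unadjusted threshold was Rpl21, a protein of the large subunit at chr5:146832890-146837032. It had 5366, 4240 and 4276 normalized counts in KO and 4012, 4104 and 3002 in WT. The groups did not overlap, although KO replicate 2 was only just above WT replicate 2. The log2 ratios were 0.42, 0.05 and 0.51, and the fitted value was 0.33 (95% interval 0.09 to 0.56; limma, unadjusted p = 0.0133, adjusted p = 0.931). Without the replicate block the smallest unadjusted p among the 82 genes was 0.0556. Rpl21 had 77 near-identical copies, of the kind described below, which held 14.9% of the summed counts. The copies had 712, 688 and 720 normalized counts in KO and 758, 754 and 756 in WT. With the copies added the value of Rpl21 was 0.26.

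The other members with the highest fitted values were Rpl26 at 0.11, Rps20 at 0.08, Rps26 at 0.08 and Rpl17 at 0.07. Rps20, a protein of the head of the small subunit, had 10284, 11284 and 10448 normalized counts in KO and 10387, 9913 and 9932 in WT. The lowest fitted values were Rps3a1 at -0.28, Rps10 at -0.13, Rps27rt at -0.11, Rpl13a at -0.08 and Rplp0 at -0.07. Rps10 had 199, 170 and 158 in KO and 191, 192 and 191 in WT, and Rpl13a had 875, 950 and 860 and 950, 977 and 903. No adjusted p among these 9 genes was under 0.97 in limma, and each interval held 0. Several of these values shrank or changed sign when a single pair was left out. Without replicate 1 the value of Rps27rt was 0.00 and that of Rps26 0.02, without replicate 2 that of Rps20 was 0.03 and that of Rpl26 -0.21, and without replicate 3 that of Rps10 was -0.06 and that of Rpl17 0.02.

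Spread between libraries was wide in a few genes. Over the 6 libraries the SD of log2 normalized counts had a median of 0.07 for the 82 genes, against 0.17 for all genes tested. The genes compared differed in level, with a median of mean counts of 6028 for the 82 genes and 179 for all genes. Translation factor genes had a median SD of 0.08, and genes of rRNA synthesis and ribosome assembly 0.10. The SD was over 0.3 for 3 of the 82 genes, Rpl26 (0.96), Rps3a1 (0.38) and Rps26 (0.30). A search of annotated transcripts with each coding sequence found 1051 copies with at least 90% identity over at least 50% of its length, for 80 of the 85 genes, and 1022 of the copies were processed pseudogenes. Windows of 75 bases, the read length, that overlap the coding sequence were also found exactly in another gene in a median of 64.5% of cases per gene. Among the tested genes the share was highest for Rps27, at 98.5%, followed by 97.8% for Rpl5, and it was 0 for Rps3. A mapping quality of at least 10 was required by the authors, so fragments that fit several places equally well were not counted. The Spearman correlation across the 82 genes between this share and the level per kb of coding transcript was -0.13, and between this share and the SD of log2 values it was 0.09, both descriptions across genes that are not independent. The median level per kb of exon was 3002 for the 56 tested genes with over 50% of windows shared and 3513 for the other 26, and per kb of coding transcript 6420 and 8011. Whether shared sequence lowered the counts was not tested.

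Of the 1051 copies, 4 were not elsewhere in the genome but annotated genes that overlap the ribosomal protein gene itself on the same strand, each with 100% identity over the part aligned. They were Gm45713 over Rpl13a, Gm28037 over Rpl24, Gm49383 over Rpl36al and RPS10-NUDT3 over Rps10. Gm49383 had a mean of 0.360 normalized counts and the other 3 had no fragment in any library. Rps10, Rpl36al and Rpl24 were the 3 lowest of the tested genes per kb of exon, and Rpl13a was also low. Whether the overlap lowered their counts was not tested. Rps16, likewise low, had no such overlap, and its copy of 100% identity, Rps16-ps2, lies on chromosome 5.

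For Rpl26, the counts of gene and copy moved in opposite directions. Rpl26, of the large subunit at chr11:68901583-68906989, had 4373, 7792 and 1350 normalized counts in KO and 4491, 4605 and 1769 in WT. The pseudogene Gm15772, at chr5:3236431-3236868, had 2240, 57.2 and 5140 in KO and 2471, 2237 and 4266 in WT. Rpl26 was thus highest in KO replicate 2, where Gm15772 was lowest, and lowest in replicate 3 of both groups, where Gm15772 was highest. With all its copies added, the sum was 6662, 7886 and 6511 in KO and 6984, 6889 and 6107 in WT, and the SD of log2 values fell from 0.96 to 0.12.

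Rps3a1, of the small subunit at chr3:86137940-86142702, stood apart in a single library. It had 4646, 4727 and 4470 normalized counts in KO and 4269, 8616 and 4798 in WT, while its copy Rps3a3 had 4252, 4562 and 4304 and 4452, 2239 and 4162. WT replicate 2 was high for the gene and low for the copy, and the ratio of that pair was -0.87 against 0.12 and -0.10 in the others. Without replicate 2 the fitted value was 0.01, and with the copies added it was -0.07 (limma adjusted p = 0.969).

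Rpsa and its copy Rpsa-ps10 showed the same opposition. Rpsa-ps10 had 5112, 5894 and 2660 normalized counts in KO and 5383, 2769 and 2527 in WT, so it was high in KO replicates 1 and 2 and WT replicate 1, where Rpsa was lowest. The fitted value of Rpsa was -0.05, and 0.03 with the copies added. For 5 further genes, chosen after their values were seen, the copies followed the replicate number more than the group. Copies of Rps26, a protein near the mRNA exit, held 561 and 579 in replicate 1 of KO and WT, 33.4 and 24.0 in replicate 2 and 345 and 303 in replicate 3. Rps26 itself held 2383 and 2063, 3515 and 3414, and 3025 and 3040. Copies of Rps7 were low in replicate 2, at 136 and 150 against 627 or more elsewhere, and Rps7 was highest there, at 9615 and 9642. Copies of Rps18 were high in replicate 2, at 1320 and 1384 against 136 or less, and Rps18 was lowest there, at 9083 and 8986. Copies of Rpl15 were at 329, 30.5 and 340 in KO and 350, 38.7 and 47.0 in WT, so replicate 3 differed between its KO and its WT library. Copies of Rps2 were high in replicate 2, at 425 and 355 against 125 or less, and Rps2 was lowest there, at 7203 and 6760. The sum was hardly steadier for Rps2, with an SD of log2 values of 0.20 against 0.23 for the gene alone. Copies of Rps15a did not follow the replicate number. They were at 120, 107 and 95.3 in KO and 108, 122 and 703 in WT, and Rps15a was lowest in WT replicate 3, at 8031.

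Copies were not always opposed to the gene. Those of Rplp0, led by Gm8730, held 36.9% of the sum and lay between 6134 and 6895 in every library. Copies held at least 5% of the sum for 16 genes. Adding copies can lower the SD of log2 values also where gene and copies move together, as in Rplp0, where it went from 0.08 to 0.07. This did not hold for every such gene, since in Rpl38 the SD rose from 0.054 to 0.056. Over the 82 genes, the median log2 ratio with copies added was -0.03, 0.02 and -0.01 in replicates 1, 2 and 3, close to that of the genes alone. Near-identical copies make the counts of these genes and of the copies uncertain, and the reason for the opposed counts was not tested.

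**Figure D3:**
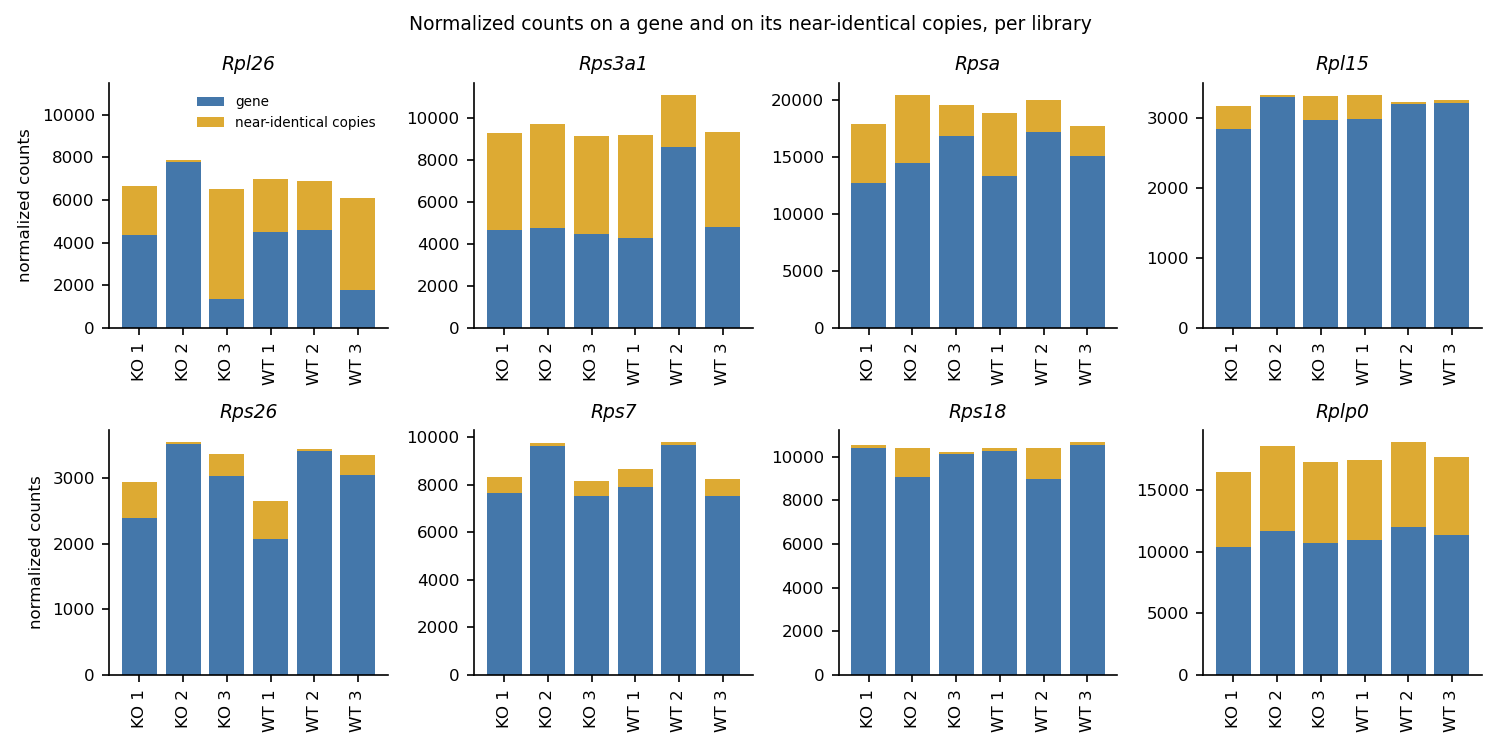
Normalized counts of 8 ribosomal protein genes (blue) and the sum of their near-identical copies (yellow, stacked) in each library. For Rpl26, Rps3a1, Rpsa, Rpl15 and Rps18 the height of the stack varies less than the blue part, and the copies of Rplp0 are alike in all 6 libraries.

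The sequences show how little separates gene and copy. Over the aligned coding sequence, Rpl26 and Gm15772 differed at 2 of 435 bases, Rps3a1 and Rps3a3 at 8 of 791, and Rpsa and Rpsa-ps10 at 6 of 885, all without gaps. The windows below hold 30 bases around a difference, read along the coding strand (GRCm38, Gencode vM21), with the differing base in capitals.
Rpl26, chr11:68903283-68903312, plus strand, exon 3: tggcacaaccgtccaTgtgggcatccaccc
Gm15772, chr5:3236703-3236732, plus strand: tggcacaaccgtccaCgtgggcatccaccc
Rps3a1, chr3:86141363-86141392, minus strand, exon 3: tgaagtgagccttgcTgatctacagaatga
Rps3a3, chr13:108670803-108670832, plus strand: tgaagtgagccttgcCgatctacagaatga
Rpsa, chr9:120128499-120128528, plus strand, exon 2: gcccttgacgtcctgCagatgaaggaggag
Rpsa-ps10, chr3:150073504-150073533, minus strand: gcccttgacgtcctgAagatgaaggaggag

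Features of sequence that the naming rule did not use were present in part of the genes. RefSeq promoters (GRCm38.p6) were matched for 65 of the 85 genes, with 77 annotated starts. A C at the start followed by at least 4 further pyrimidines, the form of a terminal oligopyrimidine tract, was present at 14 of 77 starts (18.2%), at 0 of 75 starts of mitochondrial ribosomal protein genes and at 2.51% of all 32851 RefSeq starts. A run of at least 7 pyrimidines beginning with C within 10 bases of the start was present at 30 of 77 (39.0%), against 9.33% and 12.2%. In the 300-base promoter windows, searched on both strands, CCGGAAG, the core bound by ETS factors, was found in 35.1%, against 34.7% in mitochondrial ribosomal protein genes and 8.86% of all promoters. The YY1 core AAGATGGCG was in 7.79%, 10.7% and 1.40%, and TATAAA in 9.09%, 6.67% and 13.6%. A match describes the letters of the window only. Windows of 30 bases, with 15 before and 15 from the annotated start, are shown for 4 of the 9 genes named above by role that had a matched start, the 2 with the longest runs and 2 with short ones, chosen after the runs were seen. Capitals mark the longest run that begins with a C within 10 bases of the start.
Rps6, chr4:86857353-86857382, minus strand: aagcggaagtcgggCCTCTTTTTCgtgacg
Rplp2, chr7:141447636-141447665, plus strand: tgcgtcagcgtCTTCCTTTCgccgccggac
Rpl41, chr10:128549154-128549183, minus strand: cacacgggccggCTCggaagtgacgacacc
Rplp0, chr5:115559452-115559481, plus strand: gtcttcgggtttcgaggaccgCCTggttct
The run was 10 bases in Rps6 and 9 in Rplp2, and 3 in both Rpl41 and Rplp0. In the 5 genes not shown it was 3 in Rpl5, 2 in each of Rpl11, Rps3 and Rpsa, and 3, 4 and 7 at the starts of Rps19. An annotated start is not a measured one, and starts were not measured here.

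The 85 genes lay on 19 chromosomes, 14 of them on chromosome 7 and 4 on the X chromosome. On the same strand, 30 of the 85 held a total of 58 snoRNA genes within their bodies, among them Rpl4 with 5 and Rpl13a with 4. The median fitted log2 fold change was 0.00 for the 30 host genes and -0.01 for the other 52 tested.

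Genes around the ribosome gave values of the same size. Fau encodes a ribosomal protein fused to a ubiquitin-like protein, and Rack1 is bound to the small subunit. Fau had 4548, 4568 and 4557 normalized counts in KO and 4763, 4242 and 4407 in WT, a log2 fold change of 0.03. Rack1 had 21336, 23351 and 21019 and 22003, 22177 and 22064, at -0.01, which turned to 0.36 after quantile normalization.

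Of the 38 translation factor genes, 0 passed the adjusted threshold of limma and the median was -0.01, with 16 above 0. Eif3j1, a loosely bound subunit of initiation factor eIF3, had 231, 202 and 240 normalized counts in KO and 172, 136 and 220 in WT, a fitted 0.37 (adjusted p = 0.970), and Eif3f followed at 0.10. Eif5, which activates the GTPase of eIF2, was lowest at -0.13 and Eif1 next at -0.12. Of the 47 genes of rRNA synthesis and ribosome assembly, 0 passed and the median was -0.01, with Bysl at 0.19 and Gar1 at 0.17 as the highest and Gtpbp4 and Riok1, both at -0.13, as the lowest. Of the 78 mitochondrial ribosomal protein genes, 77 were tested, 0 passed and the median was -0.02. Mrpl12 at 0.22 and Mrps36 at 0.19 were the highest, and Mrpl16 at -0.24 and Mrpl35 at -0.20 the lowest. Without replicate 3 Mrps36 was at -0.14 and Mrpl35 at -0.12, and without replicate 2 Eif1 was at -0.07 and Riok1 at -0.06. The mitochondrial set had a median SD of 0.12 over the libraries.

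Of the 12 regulators of ribosomal protein synthesis, 0 passed and 6 lay on each side of 0, with a median of -0.01. Myc, the transcription factor of ribosome synthesis, had 320, 381 and 362 normalized counts in KO and 296, 363 and 400 in WT. Larp1 had 1356, 1344 and 1427 in KO and 1259, 1312 and 1349 in WT, and was higher in KO in each pair at a fitted 0.07 (limma adjusted p = 0.970) with overlapping groups. Trp53, at 0.12, was the highest of the list, and Rheb, the activator of mTOR, the lowest at -0.14, followed by the S6 kinase gene Rps6kb2 at -0.12. Rheb rested on replicate 3, where KO had 221 and WT 317, and without that replicate its value was 0.06, that of Rps6kb2 -0.03 and that of Trp53 0.07.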

How the data were processed

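RNA sequencing libraries of cultured B cells were analysed from the authors' gene table. Per the submitters' processing notes and the study's methods, reads were trimmed with cutadapt, aligned with STAR 2.6.1a and counted by strand with featureCounts (Subread 1.6.3). The deposited values are a signal, counts divided by DESeq2 size factors. In each library 100% of values were whole multiples of a step (tolerance 0.01), which gave whole fragments back. Genes were named with Gencode vM21, 54409 of 54446 matched.

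The main test was limma 3.58.1 (R 4.3.3) with trend on log2(normalized count + 1), for the 12322 genes whose mean reached 10, with the replicate number as a block, two-sided, with Benjamini-Hochberg adjustment over all genes. Fold changes on this scale understate those of low genes. Alternatives were a pseudocount of 5, no filter, a mean of at least 50, 4 other scalings, no block, edgeR 4.0.16, DESeq2 1.42.0 on the recovered fragments, each replicate left out, and near-identical copies (blastn 2.17.0+) added, the last chosen after seeing the data. limma and edgeR called 0 genes and DESeq2 22. Scripts were tested on simulated data.

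Same-numbered libraries came from littermates and carry a batch label. Their deviations from the group means correlated at 0.328, 0.685 and 0.170 in replicates 1, 2 and 3. The members, the gene lists and the rule for named genes were chosen with earlier results of these data known. The rule took the 5 highest and 5 lowest members by level and by fold change, paralog pairs, members of known role, and the 2 highest and 2 lowest of each other list. Other genes named for their copies, low level or snoRNA genes were chosen after their values were seen. Intervals of limma reflect the spread between 3 pairs, moderated toward the trend of variance over all genes tested. For a single gene they can be wider or narrower than its own 3 pairs would give. Limits from 3 fragments cover counting error only. No 2 libraries matched within sampling noise. Results of certain genes are not reported.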

Additional observations from a re-analysis of the deposited data

How the results depend on the processing

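Without the replicate block limma called 0 genes over all, as with it, and the pairing changed no call. The count of genes passing the adjusted threshold was 22 with DESeq2, and ranged from 0 to 171 when each replicate was left out, with 171 without replicate 1. None of the genes called there was a ribosomal protein gene. The number of ribosomal protein genes at an unadjusted p under 0.05 was 0 without the block, where Rpl21 no longer passed, and 1 to 2 when each replicate was left out. With the copies added, an alternative chosen after seeing the data, 2 genes were above WT in all pairs. The counts below and above WT in all pairs were 2 and 9 with scaling to total fragments and 2 and 14 with quantile normalization, and the median log2 fold change was 0.0282 and 0.0403, beside 0.0346 and 0.0162 for all genes tested. The cause was not tested. The median ranged from -0.02 to 0.01 over the leave-outs, large minus small from -0.02 to 0.00 and the share ratio from 0.00 to 0.07.

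Of 560 values of 40 named genes under other settings, 530 kept their sign and none passed the adjusted threshold of limma, edgeR or DESeq2. Scaling to total fragments moves nearly all genes alike, and this put 5 values that were below 0 above it, for Rack1 (0.0209), Rplp2 (0.0124), Rpl41 (0.00677), Rps6 (0.00303) and Rps19 (0.0215). After quantile normalization values below 0 were above it for Rack1 (0.36), Rplp0 (0.0179), Rplp1 (0.0369), Rplp2 (0.0184), Rpl41 (0.0124), Rpsa (0.12), Rps3 (0.15), Rps6 (0.0136) and Rps19 (0.0355). With copies added this was so for Rpsa (0.0346). The cause was not tested.

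When each replicate was left out, the sign changed within the range of 14 genes: Tent5c (-0.0325 to 0.52), Fau (-0.00901 to 0.0776), Rack1 (-0.0572 to 0.0150), Mrps36 (-0.14 to 0.39), Rheb (-0.24 to 0.0553), Rps3a1 (-0.48 to 0.0101), Rpl26 (-0.21 to 0.36), Rplp2 (-0.0531 to 0.0276), Rpl3 (-0.00196 to 0.125), Rpl5 (-0.0171 to 0.0590), Rpl11 (-0.0354 to 0.0921), Rpl41 (-0.0801 to 0.01996), Rpsa (-0.16 to 0.0434) and Rps19 (-0.0363 to 0.0178). The filter on the mean left out Rpl10l, Rpl3l and Rpl39l. Without it 84 ribosomal protein genes were tested, all but Rpl10l, which had no fragment at this depth.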
